A study of Mus musculus with 36 samples.

Results

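The cultures were examined for 35 mouse genes of innate sensing, the interferon response and NF-kB feedback, chosen by name as nucleic acid sensors, transcription factors, interferon-stimulated genes, antigen presentation genes, chemokines and NF-kB inhibitors and partners. They are 35 of the 52230 genes with summed reads, and 34 of them were among the 12176 genes that passed the filter on low counts. The primary hepatocytes came from 3 female mice aged 14 weeks, each of which contributed to all 10 conditions, and 36 cultures were sequenced. Untreated hepatocytes (UN) received no vector. At endogenous GK (glucokinase), 4 groups received an adenoviral vector for GKRP (glucokinase regulatory protein), which was human GKRP-446P (hP), human GKRP-446L (hL), mouse GKRP-446P (mP) or mouse GKRP-446L (mL). The other groups received an adenoviral vector for GK, alone (GK) or together with each of these vectors (GK+hP, GK+hL, GK+mP and GK+mL). UN and GK had 2 cultures from each mouse, which were summed, and the other conditions had 1, so that each condition had n = 3 mice. All groups shared 24 h of culture in 5 mM glucose with 10 nM dexamethasone and 10 nM insulin and a final 4 h at 25 mM glucose. Human GKRP is not part of the mouse reference, so its own reads are not counted. The labels give the genotype Gckr-446L for mice 1 and 2 and Gckr-446P/L for mouse 3, whereas the methods of the study describe the P446L mice as homozygous. The genotype of mouse 3 is therefore uncertain, and genotype and mouse cannot be told apart. None of the 36 cultures was labelled as receiving an empty vector. The adenovirus and the protein it encodes therefore cannot be told apart in a comparison with untreated hepatocytes. Nor can they in a comparison of GK and GKRP together with GK alone, where the GKRP vector was a second vector.

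Cells detect foreign nucleic acid with sensors such as Ifih1 (MDA5, cytosolic double-stranded RNA), Cgas (cytosolic DNA), Zbp1 (nucleic acid in the Z conformation) and Tlr3 (endosomal double-stranded RNA). Signalling through Irf3 and Irf7 induces type I interferons, whose receptor acts through Stat2 and Irf9 on interferon-stimulated response elements in the promoters of genes such as Isg15, Ifit3 and Rsad2. NF-kB induces chemokines and its own inhibitors Nfkbia and Tnfaip3. In the liver these pathways run in hepatocytes as well as in Kupffer cells, the resident macrophages, and adenovirus is among their known triggers.

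Some of the member promoters hold elements of these pathways. In GRCm39 the window from 250 bases before to 50 bases after the start of the canonical transcript was searched on both strands for the interferon element, which was GAAA, any 2 bases and GAAA, and the kB element, which was GGGA, any base and TTTCC, each motif counted on its own where matches overlap. The interferon element was found in 13 of the 35 member promoters (37.1%) and in 3.84% of 21770 promoters of protein-coding genes. The kB element was found in 4 member promoters (11.4%), those of Tlr3, Cxcl1, Ccl5 and Nfkbia, and in 0.478% of all promoters. The interferon-gamma element, TTC, any 3 bases and GAA, was found in 7 member promoters (20%) and in 8.81% of all promoters. A match is a string of letters and not a measured binding site. The promoters below start with an interferon-stimulated gene and a sensor with several adjacent elements. A chemokine and an NF-kB inhibitor with the kB element follow. The last is that of Tap1, the member with the largest log2 fold change with the GKRP vectors. Capitals mark matches to the interferon or kB element on either strand, and the sequence reads 5' to 3' on the strand of the gene.
Isg15 promoter, GRCm39 chr4:156285254-156285553, minus strand: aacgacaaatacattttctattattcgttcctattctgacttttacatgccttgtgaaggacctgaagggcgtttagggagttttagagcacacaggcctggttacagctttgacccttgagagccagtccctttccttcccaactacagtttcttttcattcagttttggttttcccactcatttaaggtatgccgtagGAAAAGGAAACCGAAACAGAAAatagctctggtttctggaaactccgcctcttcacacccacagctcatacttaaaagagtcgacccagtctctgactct
Zbp1 promoter, GRCm39 chr2:173060675-173060974, minus strand: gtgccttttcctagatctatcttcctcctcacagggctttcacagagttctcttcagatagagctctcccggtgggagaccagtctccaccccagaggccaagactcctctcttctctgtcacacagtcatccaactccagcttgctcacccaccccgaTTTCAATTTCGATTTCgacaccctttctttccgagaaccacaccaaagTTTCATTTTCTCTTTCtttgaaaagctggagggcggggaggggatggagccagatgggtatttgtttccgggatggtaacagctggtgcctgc
Cxcl1 promoter, GRCm39 chr5:91038844-91039143, plus strand: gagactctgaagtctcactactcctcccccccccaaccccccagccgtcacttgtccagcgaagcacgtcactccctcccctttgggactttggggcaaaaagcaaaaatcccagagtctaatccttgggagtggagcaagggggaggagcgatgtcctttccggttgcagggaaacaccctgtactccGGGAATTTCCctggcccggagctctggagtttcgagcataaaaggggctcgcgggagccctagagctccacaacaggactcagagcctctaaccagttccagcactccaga
Nfkbia promoter, GRCm39 chr12:55539383-55539682, minus strand: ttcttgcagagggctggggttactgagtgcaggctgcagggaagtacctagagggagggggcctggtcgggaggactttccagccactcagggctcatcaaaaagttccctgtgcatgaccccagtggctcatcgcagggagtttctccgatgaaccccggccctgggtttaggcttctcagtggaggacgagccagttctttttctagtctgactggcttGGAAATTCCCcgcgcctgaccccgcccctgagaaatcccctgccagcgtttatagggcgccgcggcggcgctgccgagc
Tap1 promoter, GRCm39 chr17:34406125-34406424, plus strand: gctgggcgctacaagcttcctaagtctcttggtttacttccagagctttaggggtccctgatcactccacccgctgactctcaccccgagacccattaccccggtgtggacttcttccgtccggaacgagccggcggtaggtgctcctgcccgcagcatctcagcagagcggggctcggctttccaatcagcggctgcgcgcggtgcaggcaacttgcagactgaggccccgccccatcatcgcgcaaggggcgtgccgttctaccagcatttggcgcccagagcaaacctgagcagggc
In Isg15 the elements begin 50, 44 and 38 bases before the start and overlap each other. In Zbp1 there are 4, beginning 91, 85, 43 and 37 bases before the start. The kB element begins 61 bases before the start of Cxcl1 and 29 bases before that of Nfkbia. None of these letters occurs in the Tap1 window, which says nothing of a factor that may bind there.

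The libraries held between 3924674 and 10046158 expected counts (the reads that Salmon assigned to transcripts), with a median of 5980276.5. Median depth by mouse was 5664693, 6155483.5 and 5903710.5. A GK culture of mouse 3 stood apart, with 1461.9 CPM of Gckr, the gene of GKRP, against 51.8 to 98.0 CPM in the other GK cultures, and the results that rest on GK are given with and without it where the call depends on it. Per length, B2m, the invariant chain of MHC class I, had the highest level of the members. Its median was 1925.7 TPM (a level per length and library), followed by the tetherin gene Bst2 at 204.2 TPM and Ifi27 at 141.5 TPM. Medians of TPM are over 30 samples, after averaging the 2 cultures of UN and of GK from each mouse. Cgas had the lowest level, at a median of 0.124 TPM. It had 112 reads in all libraries together and none in 3 of them, and it did not pass the filter. The interferon genes Ifnb1, Ifna4, Ifng, Ifnl2 and Ifnl3 had 0 reads in all 36 libraries. A count of 0 allows up to 3 counts, which is between 0.299 and 0.764 CPM (counts scaled to library size) in these libraries, counting error only. Of their receptors, Ifnar1 had a median of 13.4 TPM and Ifngr1 of 76.2 TPM, while Ifnlr1, the receptor chain specific to Ifnl2 and Ifnl3, had a median of 0.122 TPM and 0 reads in 1 library. In these bulk samples fewer cells of a type and less RNA per cell cannot be told apart.

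The first question was whether GKRP vectors changed these genes at endogenous GK. No member passed the threshold in edgeR's quasi-likelihood test without a mouse term. A gene passed when its Benjamini-Hochberg adjusted p was under 0.05 and its fold was 1.3 or more, or 0.7 or less, with the adjustment made over the 12176 genes. Of all genes tested 1.50% were raised and 0.411% lowered by the mean of the 4 vectors. No member reached an unadjusted p under 0.05, and DESeq2 without a mouse term also called 0, with 0 at an unadjusted p under 0.05. The median log2 fold change was -0.02 for the 34 members and -0.00 for all genes tested, and the members ranged from -0.43 for Ccl2 to 0.59 for Tap1, with 16 higher and 18 lower. The standard errors were wide, with a median of 0.38 and a highest value of 0.79, and the 95% interval excluded a rise of 2-fold for 18 of the 34 members and a fall of 2-fold for 23. When the mouse was a term in the model the median standard error was 0.14, and both a rise and a fall of 2-fold were excluded for 33 members each. In that model 1 member, Tap1, passed the threshold, as given below, where 3.09% of all genes were raised and 1.05% lowered. Standard errors below are from the model without a mouse term unless the mouse is named as replicate block, so they include the differences between mice.

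**Figure D1:**
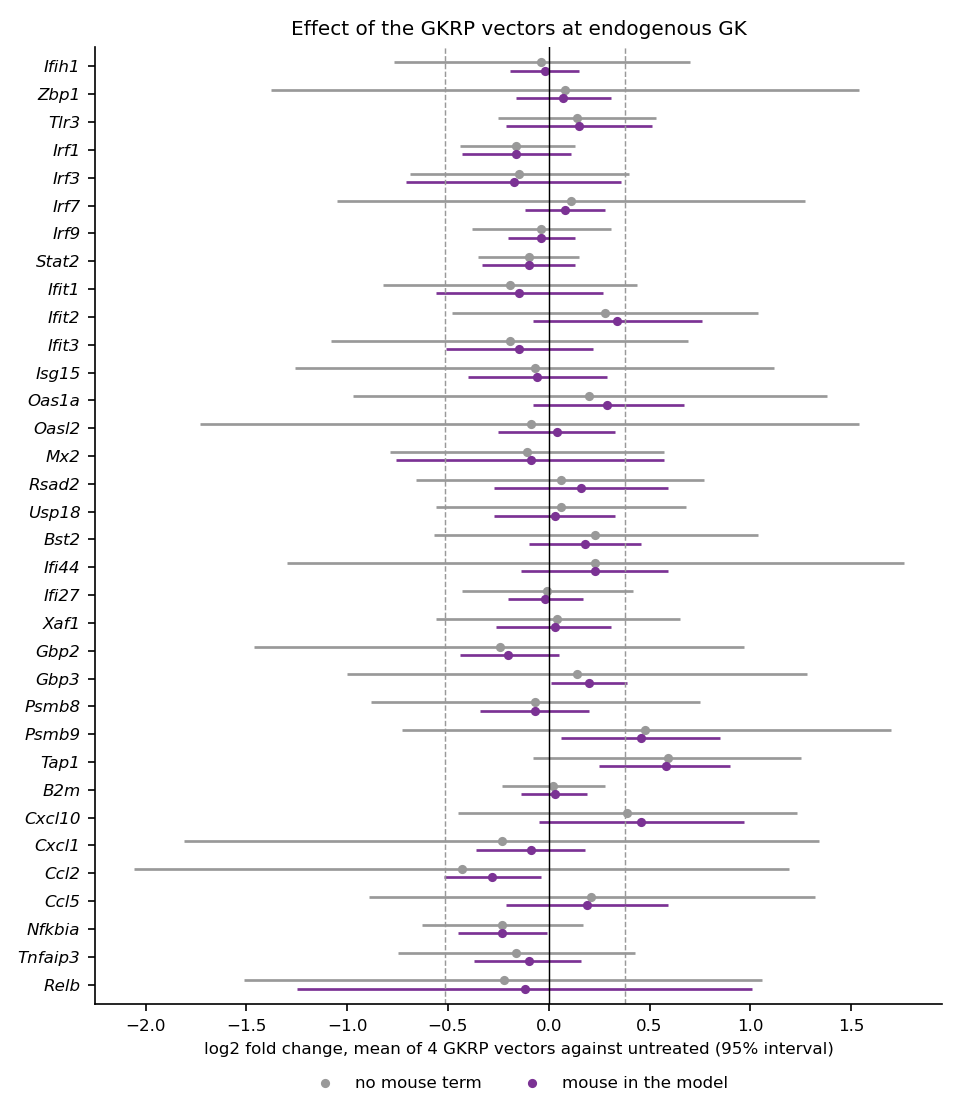
Log2 fold change of the 34 tested members at endogenous GK, comparing the average of the 4 GKRP vectors with untreated hepatocytes (points, with 95% intervals as lines), from the model without a mouse term (grey) and with it (purple). Dashed lines mark fold changes of 0.7 and 1.3. The purple intervals are shorter for most members, and that of Tap1 lies above 0, from 0.25 to 0.90.

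The largest difference was in Tap1, an antigen presentation gene. It encodes a subunit of the transporter that carries peptides into the endoplasmic reticulum for loading on MHC class I. In the order of mice 1, 2 and 3 its expression was 33.4, 19.8 and 22.4 CPM in untreated hepatocytes (CPM after TMM normalization). It was 50.1, 30 and 47.8 CPM with hP and 45.7, 37.6 and 38.3 CPM with hL. With each of these human vectors every mouse was above its own untreated value. It was 52.2, 25.3 and 30.3 CPM with mP and 47.5, 16.9 and 34.2 CPM with mL, where mouse 2 was below its untreated value. For the mean of the 4 vectors the log2 fold change was 0.59 (SE 0.32, n = 3 mice per condition, adjusted p = 0.653 by edgeR). Within mouse it was 0.54, 0.40 and 0.72, so it had the same sign in all 3 mice.

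With GK overexpression the question was the same, against GK alone. Tap1 was 34.0, 17.2 and 16.0 CPM with GK in mice 1, 2 and 3. It was 46.4, 30.7 and 36.1 CPM with GK+hP and 43.7, 17.3 and 35.4 CPM with GK+hL. It was 53.8, 26.9 and 38.8 CPM with GK+mP and 40.6, 21.5 and 38.6 CPM with GK+mL. All 12 values with GKRP were above that of the same mouse with GK alone, though the groups overlapped across mice in each case. The log2 fold change of the mean of the 4 vectors was 0.67 (SE 0.32, unadjusted p = 0.0484, adjusted p = 0.492 by edgeR). Over both GK levels Tap1 was higher with a GKRP vector in 23 of 24 comparisons within a mouse, which share the UN or GK sample of that mouse. This held for 3.79% of all genes tested, and the other members were higher in between 6 and 22 of the 24. For GK alone against untreated the log2 difference was -0.17 (SE 0.39), with values within mouse of 0.02, -0.20 and -0.47.

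With the mouse as replicate block, Tap1 passed the threshold in 6 of the 16 comparisons. It rose with the 4 GKRP vectors on average against untreated (log2 0.58, SE 0.16, adjusted p = 0.0251 by edgeR with the block), where 3.09% of all genes were raised. It rose in the mean of the 4 vectors with GK against GK (0.68, SE 0.16, adjusted p = 0.00730 by edgeR with the block, with 2.91% of all genes raised). The single vectors were hP (0.76, adjusted p = 0.0288, 1.95% raised) and hL (0.73, adjusted p = 0.0333, 2.50% raised) against untreated, and GK+hP (0.80, adjusted p = 0.0175, 2.00% raised) and GK+mP (0.84, adjusted p = 0.00719, 3.55% raised) against GK, all by edgeR with the block. With the block 1.45% of all genes were lowered by the 4 vectors with GK against GK and 0.509% by hP, and no member was among them. The other comparisons held no call of Tap1 with the block, with 3.51% of all genes raised by the 4 vectors with GK against untreated and 0.493% raised by 446L against 446P. Without any 1 mouse the call against untreated was lost, with an adjusted p of 0.162 without mouse 1, 0.0570 without mouse 2 and 0.273 without mouse 3 by edgeR with the block, while the log2 fold change stayed between 0.47 and 0.64. The calls of hP, hL and GK+hP were also lost without any 1 mouse, and that of GK+mP was kept without mouse 2 (adjusted p = 0.0234) and lost without mouse 1 (0.0635) or mouse 3 (0.160), by edgeR with the block. The call of the 4 vectors with GK against GK was lost without mouse 3 (log2 0.44, adjusted p = 0.298 by edgeR with the block) and kept without mouse 1 (0.0385) or mouse 2 (0.0217). Without the GK culture that stood apart the call against GK was kept (log2 0.62, adjusted p = 0.00949 by edgeR with the block). The difference between the GKRP effect with and without GK was 0.09 for Tap1 (SE 0.44, adjusted p = 1.00 by edgeR).

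Psmb9, an interferon-inducible subunit of the immunoproteasome that trims peptides for the same pathway, is the neighbour of Tap1 on chromosome 17. It is described because it was called with the block, a choice made after its values were seen. It was low, with 5 to 64 reads per library. It was 5.44, 1.72 and 2.01 CPM in untreated hepatocytes and 9.17, 2.59 and 3.26 CPM with mP in mice 1, 2 and 3. With GK alone it was 5.54, 1.60 and 2.08 CPM, and with GK+mP 9.65, 2.63 and 4.92 CPM, so that each mouse was higher with GK+mP while the groups overlapped. The log2 difference between GK+mP and GK was 0.91 (adjusted p = 0.723 by edgeR, and 0.0172 with the block), and the call with the block was lost without mouse 1 or mouse 3. The values were above the matched condition in 22 of 24 comparisons within a mouse. In GRCm39 Tap1 (ENSMUSG00000037321) spans chr17:34405996-34416199 on the plus strand and Psmb9 (ENSMUSG00000096727) spans chr17:34400960-34406738 on the minus strand, with an overlap of 743 bases. Whether the counting used strand is not given in the sources used here, so reads of the overlap cannot be told apart. Psmb8, the immunoproteasome subunit on the other side of Tap1, had a log2 fold change with the 4 vectors of -0.07 (SE 0.39), and B2m one of 0.02 (SE 0.12). B2m was 1285.7, 1064.7 and 1269.3 CPM in untreated hepatocytes and between 1045.0 and 1772.4 CPM over all samples, so that of the 4 antigen presentation genes Psmb8 and B2m held no called change in any comparison, with or without the block.

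**Figure D2:**
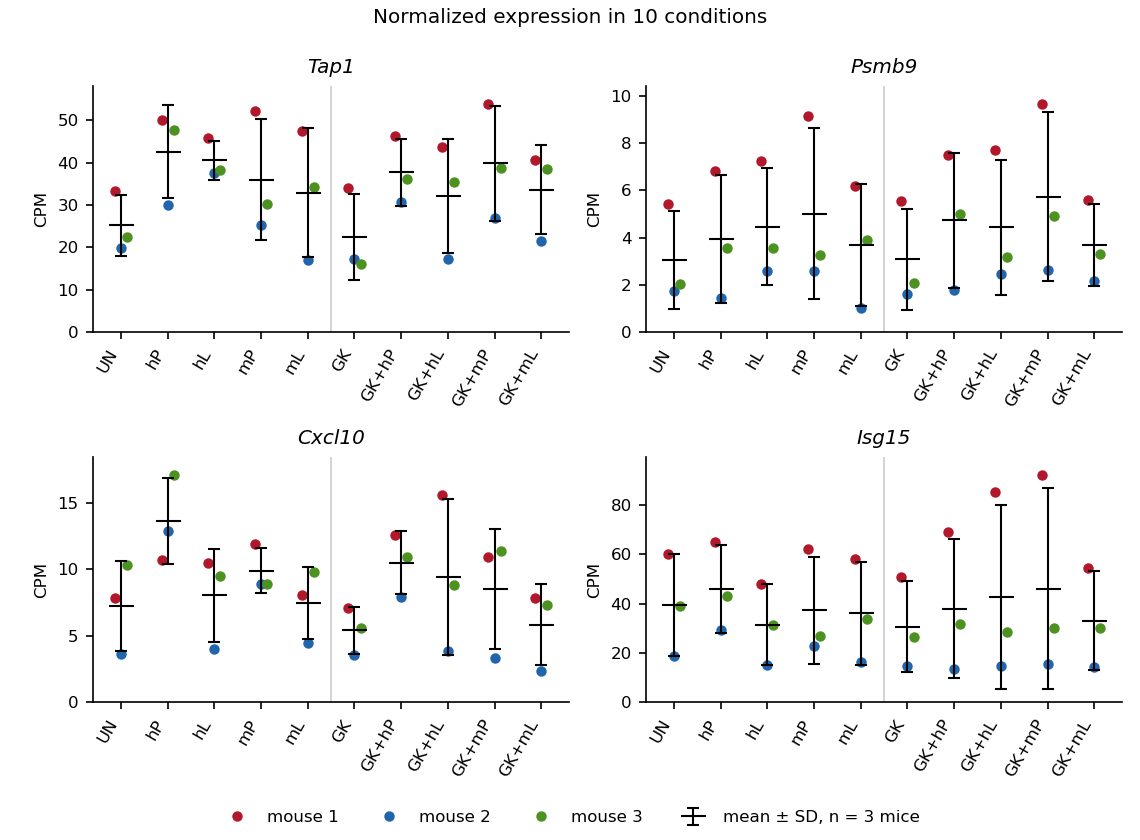
Expression of Tap1, Psmb9, Cxcl10 and Isg15 in CPM in the 10 conditions, with 1 point for each mouse and the mean ± SD of 3 mice in black; the grey line separates endogenous GK from GK overexpression. Tap1 means lie at 25.2 in UN and 22.4 in GK and between 32.1 and 42.6 with a GKRP vector, while the order of the mice is kept in most conditions.

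Chemokines attract leukocytes and are classical targets of NF-kB and interferon. Cxcl10, which attracts T cells, had a log2 fold change with the 4 vectors of 0.39 (SE 0.40, adjusted p = 0.990 by edgeR). It was 7.82, 3.60 and 10.3 CPM in untreated hepatocytes and 10.7, 12.9 and 17.1 CPM with hP. It was 7.08, 3.56 and 5.59 CPM with GK and 12.6, 7.92 and 10.9 CPM with GK+hP. With the block the difference was 1.05 for hP (adjusted p = 0.0655 by edgeR) and 0.97 for GK+hP (0.0811), which missed the threshold. With hL it was 10.5, 4.03 and 9.53 CPM, and the difference between the 446L and 446P vectors was -0.54 with the block (SE 0.16, adjusted p = 0.150 by edgeR). Cxcl1, which attracts neutrophils, was 90.0, 8.92 and 40.1 CPM in untreated hepatocytes, and its log2 fold change with the 4 vectors was -0.23 (SE 0.76). Ccl2, which attracts monocytes, was 65.7, 5.62 and 27.1 CPM in untreated hepatocytes. It was 41.1, 5.68 and 28.6 CPM with hP and 34.0, 5.51 and 29 CPM with mP. Its log2 fold change of -0.43 (SE 0.78) came from mouse 1, at -0.75 within that mouse, against 0.02 and 0.04 in the others.

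Sensors did not pass the threshold in any comparison. Ifih1, the most abundant sensor, was 73.0, 29.2 and 52.8 CPM in untreated hepatocytes and 64.2, 34.8 and 51.7 CPM with hP, and its log2 fold change with the 4 vectors was -0.04 (SE 0.35). Tlr3 was 5.34, 4.20 and 7.01 CPM in untreated hepatocytes and 7.76, 8.09 and 6.99 CPM with hP. It had the largest change of the tested sensors, at 0.14 (SE 0.19, adjusted p = 1.00 by edgeR). Tlr3 was the member with the largest share of variance between conditions, and was lower with 446L than with 446P vectors, at -0.35 (SE 0.12, unadjusted p = 0.00815, adjusted p = 1.00 by edgeR, and 0.221 with the block).

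Among the transcription factors Irf7, itself induced by interferon, was the most abundant. It was 126.6, 42.4 and 54.3 CPM in untreated hepatocytes and 132.1, 44.7 and 71.8 CPM with hP, and its log2 fold change with the 4 vectors was 0.11 (SE 0.56). Irf1, a factor induced by interferon-gamma and NF-kB, was 31.2, 24.1 and 28.3 CPM in untreated hepatocytes and 17.7, 20.4 and 28.9 CPM with mL. Its change with the 4 vectors was -0.16 (SE 0.14), the largest of the 5 factors. For 446L against 446P vectors it was -0.27 (SE 0.09, unadjusted p = 0.00632, adjusted p = 1.00 by edgeR, and 0.207 with the block). Irf3, the factor that acts first downstream of the sensors, was higher in the mean of the 4 vectors with GK than in GK, at 0.65 (SE 0.28, unadjusted p = 0.0279, adjusted p = 0.392 by edgeR). Its leading transcript held between 0% and 74.1% of its reads from library to library, and the gene overlaps Bcl2l12 and Scaf1 on the opposite strand. Stat2 and Irf9 had log2 fold changes of -0.10 (SE 0.12) and -0.04 (SE 0.17).

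The 15 interferon-stimulated genes had a median log2 fold change of 0.04 with the 4 vectors, from -0.24 for Gbp2 to 0.28 for Ifit2, with 8 higher and 7 lower. Bst2, the most abundant of them in CPM, was 154.8, 90.3 and 94.7 CPM in untreated hepatocytes and 227.7, 92.3 and 109.0 CPM with mP (log2 fold change with the 4 vectors 0.23, SE 0.39). Ifit2, an inhibitor of viral translation, was 4.06, 1.95 and 5.59 CPM in untreated hepatocytes and 4.92, 4.40 and 5.31 CPM with hL (0.28, SE 0.37). Isg15, the ubiquitin-like modifier, was 60.2, 18.8 and 39 CPM in untreated hepatocytes and 64.9, 29.5 and 42.9 CPM with hP (-0.07, SE 0.58). In all 3 of these genes the untreated samples and those with vector overlapped. Oasl2 and Ifi44 had the highest standard errors of the interferon-stimulated genes, at 0.79 and 0.74.

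None of the 3 NF-kB members passed the threshold with the 4 vectors, and the mice differed in direction for Tnfaip3 and Relb. Nfkbia, the inhibitor that returns NF-kB to the cytoplasm, was 49.1, 32.5 and 37.3 CPM in untreated hepatocytes and 35.2, 29.5 and 35.7 CPM with hP (log2 fold change with the 4 vectors -0.23, SE 0.19, adjusted p = 0.932 by edgeR), with values within mouse of -0.28, -0.22 and -0.18. Tnfaip3 (A20), a ubiquitin-editing enzyme that ends NF-kB signalling, was 73.3, 25.9 and 44.8 CPM in untreated hepatocytes and 45.9, 32.4 and 40.3 CPM with mP (-0.16, SE 0.28), and within mouse it was -0.45, 0.16 and 0.04 with the 4 vectors. Relb, a subunit of the alternative NF-kB dimers, was 2.18, 1.50 and 8.12 CPM in untreated hepatocytes and 2.79, 3.12 and 14.5 CPM with hP. With the 4 vectors its log2 fold change was -0.22 (SE 0.62), and within mouse it was 0.13, 0.25 and -0.61. It was 2.90, 4.58 and 10.3 CPM with GK and 1.36, 1.94 and 0.917 CPM with GK+hP (-2.08, SE 0.87, unadjusted p = 0.0252, adjusted p = 0.550 by edgeR). This gene had 2 to 89 reads per library, and its leading transcript held from 0% to 100% of them.

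The remaining comparisons held no called member without the block. For the 4 vectors with GK against untreated hepatocytes 1.46% of all genes were raised and 0.435% lowered, and the members had a median log2 fold change of -0.06. For GK against untreated hepatocytes 0.00821% of all genes were raised and 0% lowered, and 25 of the 34 members were lower, with a median of -0.18 against -0.00 for all genes. For GK against the 5 combined groups of endogenous GK 0.394% of all genes were raised and 0.0411% lowered. Here 30 of the members were lower, with a median of -0.20 against -0.01 for all genes, and Tap1 reached an unadjusted p of 0.0485 (log2 -0.66, adjusted p = 0.634 by edgeR). For the 4 vectors with GK against GK 1.09% of all genes were raised and 0.501% lowered, and 25 members were higher, with a median of 0.12 and Irf3 and Tap1 at an unadjusted p under 0.05. These last comparisons share the GK samples. For the GK effect with GKRP 0.0164% of all genes were raised and 0% lowered, and Tlr3 and Ifit2 were lower at an unadjusted p under 0.05. For 446L against 446P vectors 0.00821% of all genes were raised and 0% lowered, and 27 members were lower, with a median of -0.08 against 0.00 for all genes. With the block 27 members were lower as well, with a median of -0.10. For the difference between the GKRP effect with and without GK 0% of all genes passed in either direction, and 1 member, Irf3, had an unadjusted p under 0.05.

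The single vectors gave the same count of 0 called members in edgeR without the block. Against untreated hepatocytes the share of all genes raised was 0.690% for hP, 0.805% for hL, 1.00% for mP and 0.895% for mL, and the share lowered was 0.0657%, 0.0821%, 0.131% and 0.140%. No member had an unadjusted p under 0.05 in these comparisons, and the members' medians were 0.14, -0.00, 0.01 and -0.11. Against GK the share raised was 0.632% for GK+hP, 0.468% for GK+hL, 1.02% for GK+mP and 0.558% for GK+mL, and the share lowered was 0.246%, 0.131%, 0.616% and 0.0329%. The members' medians were 0.16, 0.18, 0.14 and -0.02. Members with an unadjusted p under 0.05 were Tlr3 and Relb with GK+hP, Irf3 with GK+hL and Tap1 with GK+mP. DESeq2 without a mouse term called 0 members in all 16 comparisons, with 0 to 3 at an unadjusted p under 0.05. DESeq2 with the block called Cxcl10 as raised with hP and with GK+hP and Cxcl1 as lowered with GK+hL, besides Tap1 and Psmb9. In that fit 11 members had an unadjusted p under 0.05 for 446L against 446P vectors. The count was also 11 for the GK effect with GKRP, and 10 for the 4 vectors with GK against untreated. It was 1 to 8 in the other comparisons. The share of all genes at that level was not taken from this fit, nor is the share called given for its single vectors. These counts and calls therefore cannot be read as a result about the members.

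The other genes of these pathways comprised 123 named ligands, receptors, adaptors, factors, interferon-stimulated genes, chemokines and NF-kB genes, of which 103 were tested, and edgeR without the block also called 0 of them in every comparison. For the 4 vectors against untreated, 2 had an unadjusted p under 0.05, among them Nfkbie (log2 -0.60, SE 0.23). With the block Tnfaip2, from the list of NF-kB genes, was raised (0.58, SE 0.14, adjusted p = 0.0108 by edgeR), where 3.09% of all genes were raised. It was also raised with mP (0.68, 2.45% of all genes raised), mL (0.63, 2.50%) and the 4 vectors with GK against untreated (0.50, 3.51%). Mavs, the mitochondrial adaptor of Ifih1, was raised by the 4 vectors with GK against GK (0.56, SE 0.06, adjusted p = 3.11e-06 by edgeR with the block, and 0.0843 without it), and DESeq2 without a mouse term called it too. With the block 2.91% of all genes were raised in that comparison. Mavs was also raised with the block by hL against untreated (0.40, adjusted p = 0.00337 by edgeR, 2.50% of all genes raised). Each single GKRP vector with GK raised it against GK as well (0.42 to 0.69, with 1.60% to 3.55% of all genes raised). The sensor Rigi, listed under its older name Ddx58, was lowered with mL (-0.55, SE 0.13, adjusted p = 0.0170 by edgeR with the block).

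The members differed far more between the 3 mice than between the 10 conditions. These differences compare single animals, each with 10 samples from 1 isolation of hepatocytes, and carry no test. The mice took a median of 70.5% of the variance of log2 CPM for the 34 members against 28.8% for all genes tested, and the conditions 11.5% against 25.7%. Without any difference the degrees of freedom alone would give the mice 6.9% and the conditions 31%. Mouse 1 was higher than mouse 2 for 31 of the 34 members, with a median log2 difference of 0.94 against -0.00 for all genes. For 19 members (55.9%) every sample of mouse 1 lay above every sample of mouse 2, which held for 7.69% of all genes. Every sample of mouse 3 lay above mouse 2 for 11 members (32.4%, against 3.03% of all genes), with a median difference of 0.64. Every sample of mouse 1 lay above mouse 3 for 13 members (38.2%, against 4.26%), with a median of 0.34. No member had every sample of mouse 2 above mouse 1, against 7.37% of all genes, or above mouse 3, against 2.75%.

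**Figure D3:**
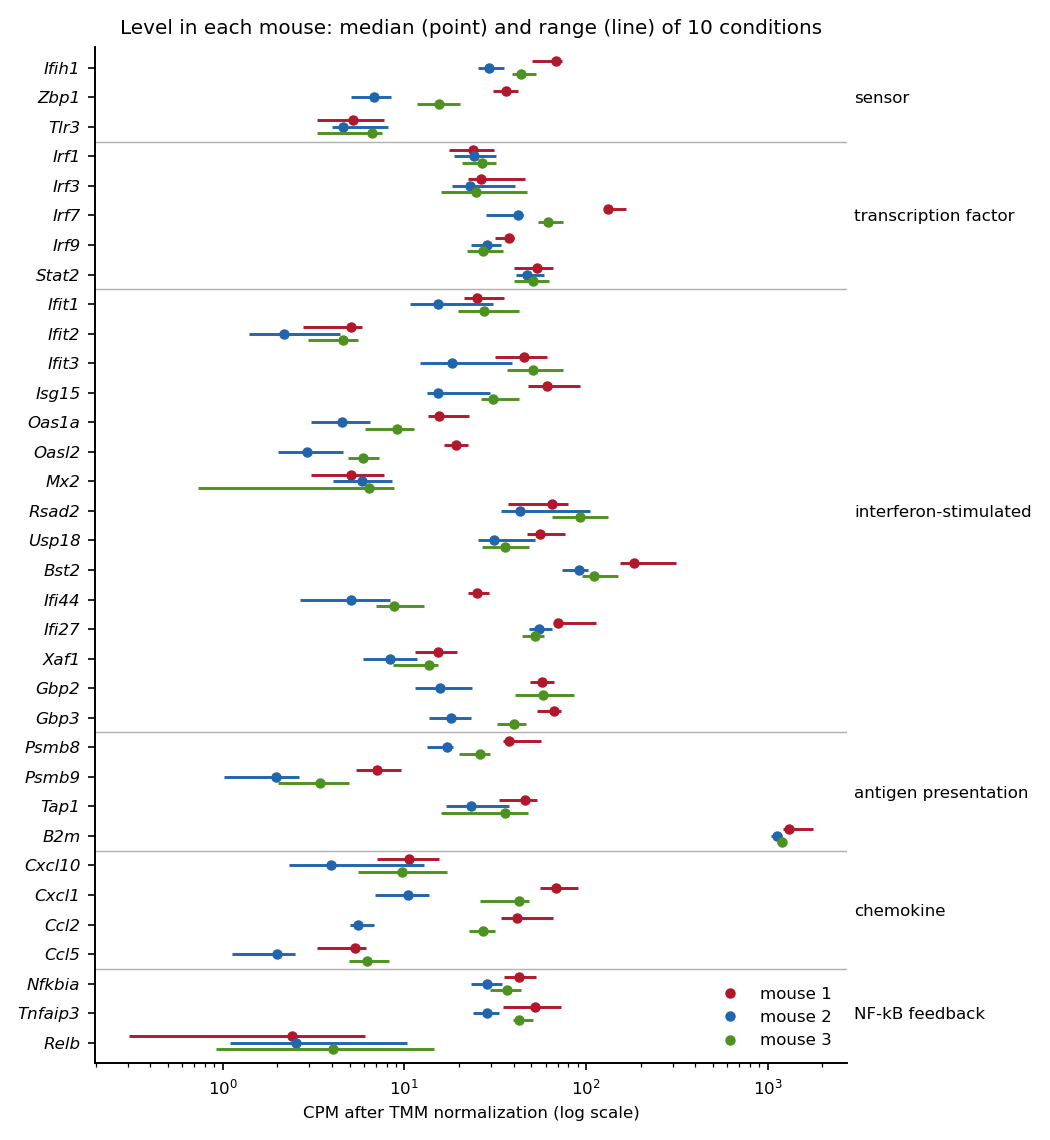
Expression of the 34 tested members in each mouse on a log scale of CPM, with the median (point) and range (line) of 10 conditions, grouped by role. Ccl2, Cxcl1, Zbp1, Irf7, Oasl2, Gbp3 and Psmb8 separate all 3 mice in the order 1, 3, 2, while the lines of Tlr3, Irf1, Stat2 and Mx2 overlap.

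The chemokines were furthest apart. Ccl2 ranged from 34.0 to 65.7 CPM in mouse 1 (median 41.9), from 5.01 to 6.85 CPM in mouse 2 (median 5.57) and from 22.6 to 31.6 CPM in mouse 3 (median 27.0). The 3 ranges did not overlap, and mouse 1 was 7.10-fold above mouse 2 (log2 2.83, SD 0.28 over 10 conditions). Cxcl1 ranged from 56.0 to 90.9 CPM, from 6.93 to 13.7 CPM and from 26.1 to 48.6 CPM in mice 1, 2 and 3, and mouse 1 was 6.43-fold above mouse 2. Ccl5, which attracts T cells and monocytes, was highest in mouse 3 at a median of 6.22 CPM, against 5.35 CPM in mouse 1 and 2.00 CPM in mouse 2, and the ranges of mice 1 and 3 overlapped. The 2 cultures from the same mouse lay near each other, with 69.7 and 58.7 CPM of Ccl2 in untreated mouse 1, 7.15 and 4.23 CPM in mouse 2 and 28.3 and 26.3 CPM in mouse 3.

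Several interferon-stimulated genes and sensors followed the same order of mice. The largest folds of mouse 1 over mouse 2 were 5.65 for Oasl2, 5.01 for Zbp1, 4.93 for Ifi44, 3.62 for Isg15, 3.57 for Gbp3, 3.53 for Gbp2, 3.42 for Irf7 and 3.36 for Oas1a. Zbp1 had a median of 36.3 CPM in mouse 1, 6.82 CPM in mouse 2 and 15.5 CPM in mouse 3, and all 3 ranges were apart. Isg15 had a median of 61.2, 15.3 and 30.8 CPM, and mouse 3 overlapped mouse 2. Bst2 had a median of 182.7, 91.7 and 110.9 CPM. Mouse 3 was the highest for a few genes, such as the radical enzyme viperin, Rsad2, at a median of 92.6 CPM against 65.1 CPM in mouse 1 and 43.1 CPM in mouse 2, though its range overlapped both. Ifit3 had medians of 45.4, 18.4 and 50.9 CPM and Gbp2 of 57.4, 15.7 and 58.3 CPM, and in each of these mice 1 and 3 overlapped. The immunoproteasome genes Psmb9 and Psmb8 were 3.07-fold and 2.35-fold higher in mouse 1 than in mouse 2, without overlap.

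Other members did not differ between mice in this way. Tlr3, Irf1, Irf3, Stat2, Mx2 and Relb had between 3.83% and 11.3% of their variance between mice, and their ranges overlapped in all pairs of mice. Among the other genes of the pathways every sample of mouse 1 lay above mouse 2 for 48 of 103 (46.6%, against 7.69% of all genes). The median log2 difference was 0.65. The fold was 4.99 for Ikbke, an interferon-inducible kinase that acts on Irf3, 3.48 for Tap2 and 3.31 for Psmb10. For 2 of the 103 every sample of mouse 1 lay below mouse 2, which held for 7.37% of all genes. These were Ikbkg with a fold of 0.456 and Traf6 with a fold of 0.723, both of which act in signalling to NF-kB. The tested members were also split by the interferon element in their promoter window. Every sample of mouse 1 lay above mouse 2 for 7 of the 13 members with this element (53.8%). This held for 12 of the 21 members without the element (57.1%) and for 7.69% of all genes.

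**Figure D4:**
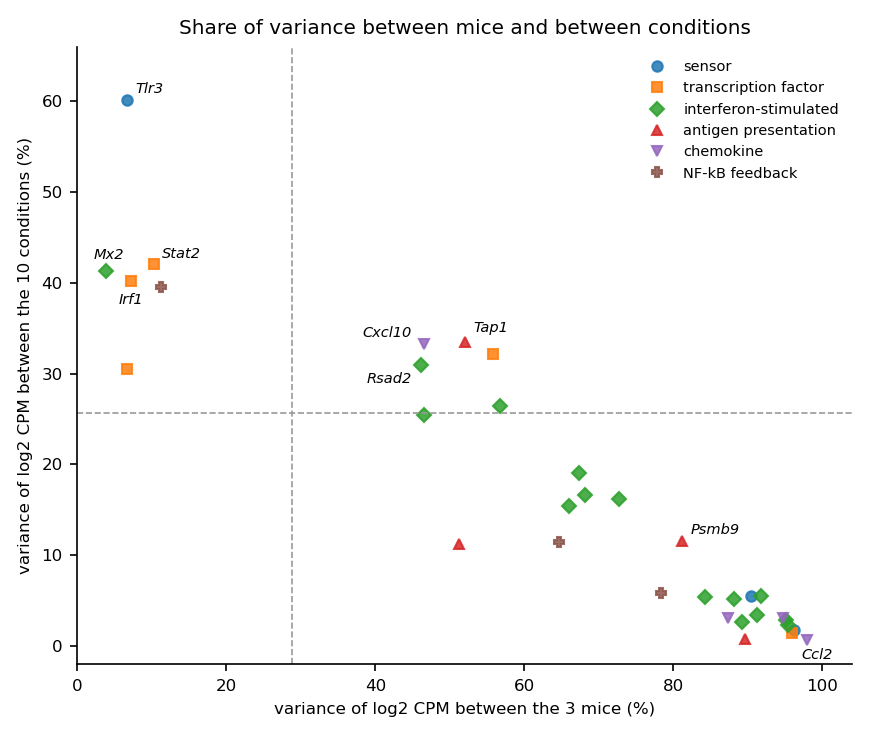
Share of the variance of log2 CPM between the 3 mice (x axis, %) and between the 10 conditions (y axis, %) for each tested member, marked by role; dashed lines give the medians of all genes tested, 28.8% and 25.7%. Ccl2 lies at 98.0% between mice, whereas Tlr3 lies at 6.70% between mice and 60.2% between conditions.

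Markers of other cells moved with the mice as well. Summed over 12 macrophage markers the median was 285.8, 316.9 and 325.3 CPM in mice 1, 2 and 3, and Cd68, the most abundant of them, had 130.2, 231.5 and 207.8 CPM. Without Cd68 the other 11 summed to 140.7 to 174.0 CPM in mouse 1, 73.4 to 95.7 CPM in mouse 2 and 104.3 to 123.7 CPM in mouse 3. The sum without Cd68 was not set in advance. Its order of mice was that of Ccl2 and Zbp1, whereas the sum of all 12 was lowest in mouse 1. Of the 12 markers 10 had a higher median in mouse 1 than in mouse 2, such as Adgre1 with 8.55 against 3.25 CPM and Clec4f with 11.0 against 9.04 CPM. The 8 hepatocyte markers summed to medians of 75358.5, 120756.3 and 97798.5 CPM, with 7 of 8 higher in mouse 2 than in mouse 1. Endothelial markers summed to 85.9, 81.9 and 117.6 CPM and stellate cell markers to 28.6, 132.3 and 71.9 CPM. Of the stellate cell markers Reln had 13.4, 118.7 and 33.8 CPM and Dcn 14.2, 12.2 and 35.3 CPM, while the others had medians of at most 1.81 CPM. Of these 6 markers 3 had a higher median in mouse 1 than in mouse 2. Cholangiocyte markers summed to 165.8, 17.9 and 27.6 CPM, of which Spp1 had 152.5, 8.22 and 14 CPM and Sox9 12.9, 8.40 and 12.9 CPM, while Krt19, Krt7 and Epcam had medians of at most 1.19 CPM. The 8 lymphocyte and dendritic markers summed to at most 0.792 CPM in any sample, and Nkg7 and Ncr1 were at 0 in all libraries. None of the markers tested was called between conditions by edgeR without the block, with 0 at an unadjusted p under 0.05. The differences between mice are part of the error of that fit. The part of other cells, of genotype and of the isolation in the differences between mice was not tested.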

How the data were processed

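RNA was sequenced from 36 hepatocyte cultures of 3 mice. The authors quantified the reads with Salmon 1.4.0 against Gencode release 26 of GRCm39 after FastQC, and deposited expected counts and TPM per transcript for each culture; strandedness is not given in the sources used here. Transcripts were paired with genes through Gencode release 39 of the same build (98.8% matched, and the unmatched held 0.392 to 0.639% of the reads), summed to genes, summed over cultures of the same mouse and condition, and rounded, which gave 30 samples. TPM was used to compare levels between genes.

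Genes were filtered with filterByExpr, normalized by TMM (factors 0.901 to 1.09) and tested with edgeR 4.0.16 in R 4.3.3 by the quasi-likelihood test in a model of all 10 conditions, with Benjamini-Hochberg adjustment over 12176 genes. A call needed an adjusted p under 0.05 and a fold of at least 1.3 or at most 0.7, after the thresholds of the study. GK against the 5 combined groups of endogenous GK had a model of its own. All members and gene lists were chosen with earlier results of these data known. In each role the member with the highest mean CPM and the one with the largest log2 change with the 4 GKRP vectors were described, besides members named after their values were seen.

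Each mouse gave all conditions, so samples are paired by animal. After removing condition means, the mean correlation was 0.223 for 135 pairs from a single animal (82.2% of them over 0.1) and -0.110 for pairs from different animals, and the biological coefficient of variation was 0.323 without and 0.231 with the mouse as replicate block. Alternatives were this block, RLE normalization, DESeq2 1.42.0, 36 separate cultures, other filters, no fold threshold and each mouse left out. On simulated data with 200 genes changed 2-fold among 12046, the test of the 4 GKRP vectors against untreated recovered 58.5% with 7 false calls among 124. The changed genes were drawn at random from all tested genes, and the simulated samples held no mouse effect. The share recovered therefore does not describe the members. Shares of variance were taken on log2(CPM + 0.5). Promoters were read from GRCm39 at the transcript tagged Ensembl canonical in Gencode, which need not be the transcript with most reads. Depth per library was 3924674 to 10046158, and the floor for a count of 0 covers counting error only. Results of 1 other pathway gene are not reported here.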

Additional observations from a re-analysis of the deposited data

How the results depend on the processing

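All counts of called members were 0 in edgeR without a mouse term, and they remained 0 with RLE normalization, DESeq2, 36 cultures as samples, either other filter on low counts, no fold threshold, without the GK culture that stood apart, and without each mouse (0 to 0). With the mouse as replicate block the count was 1 (Tap1) for the 4 GKRP vectors against untreated, for the 4 vectors with GK against GK, for hP, for hL and for GK+hP, and 2 (Tap1 and Psmb9) for GK+mP. The block changed no other call of a member. Of all genes it raised 376 in place of 183 with the 4 GKRP vectors and 354 in place of 133 with the 4 vectors and GK against GK.

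The following alternatives were chosen after seeing the data. DESeq2 with the block gave 1 (Tap1) for the 4 vectors against untreated, for the 4 vectors with GK against untreated and against GK, for GK against the 5 combined groups (lowered), for hL and for GK+mL, 1 (Cxcl1) for GK+hL, and 2 for hP and GK+hP (Tap1 and Cxcl10) and for GK+mP (Tap1 and Psmb9). It raised 406 genes with the 4 vectors. The block without the GK culture that stood apart gave 1 (Tap1) for the 4 vectors with and without GK against untreated, hP, hL and GK+hP, 1 (Ifit2, lowered) for the GK effect with GKRP, and 2 (Tap1 and Psmb9) for the 4 vectors with GK against GK and for GK+mP. With the block and a mouse left out the counts ranged from 0 to 1 for the 4 vectors with GK against GK (Tap1, lost without mouse 3), from 0 to 2 for GK+mP (lost without mouse 1 or mouse 3), and from 0 to 1 for the 4 vectors with GK against untreated and for mL (Gbp2, lowered, without mouse 1). All other calls of the block were lost without any 1 mouse; the cause was not tested, and each such fit has fewer samples. Depth limits Cgas, Psmb9 and Relb, and 3 mice limit every comparison between animals.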
